A study of Homo sapiens with 6 samples.

Results

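The genes described here are 33 genes of the G2 and M phases of the cell cycle, among 20660 gene names in the deposited table. They were taken by symbol from a list, with no cut-off on a measured value. That list was chosen with earlier results of these data known. For each of the 33 genes all coding sequences listed under its symbol were taken, and their values were summed within each group to give a gene sum. RNA was sequenced from FaDu cells, an established line of head and neck squamous cell carcinoma (HNSCC), after treatment with BB608, a compound given by this code name alone, or with the vehicle DMSO. Each group had 3 libraries labelled as biological replicates, 6 in all, and both groups share the same line. Nothing states that the replicates came from separate cultures, and no dose or treatment time appears in the labels. The table gives 1 value per group in FPKM, fragments scaled to length and to the size of the library. The authors' software had already pooled this value within each group, so no value per library and no sequencing depth could be shown. The deposited values are labelled DMSO_subset and BB608_subset. What subset means is not stated, so whether each value covers all 3 libraries of its group is unknown.

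A cell that divides builds up the proteins of mitosis late in its cycle. Cyclin B and cyclin A activate the kinase CDK1, the CDC25 phosphatases remove its inhibitory phosphates, and Polo-like and Aurora kinases then help to build the spindle. The spindle checkpoint holds chromosomes back until every kinetochore is attached, after which the anaphase-promoting complex with CDC20 marks cyclin B and securin for destruction. The genes of these proteins are transcribed together, held down by the DREAM complex in resting cells and switched on by B-MYB and FOXM1 in G2. Their summed level in a culture therefore follows the share of cells in G2 and M as well as the RNA of each such cell, and these cannot be told apart in bulk RNA.

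Promoter sequences show the letters through which that shared control is known to act. RefSeq windows of the build GRCh38.p14, from 250 bases before to 50 bases after a transcript's start, were matched by symbol for 27 of the 33 genes, with 36 windows. No window was matched for AURKA, BIRC5, FOXM1, TPX2, TTK or UBE2C. Motifs were searched on both strands. The cell cycle genes homology region (CHR) is the site bound by the DREAM and B-MYB complexes and was searched as TTTGAA and, as a variant, TTCGAA. The CCAAT box, the site of the factor NF-Y, was searched as CCAAT, and letters may serve both motifs where TTTGAA runs into ATTGG. The CHR letters TTTGAA stood in the windows of 18 of the 27 genes (66.7%), against 18.2% of all 27305 genes with a window. The variant TTCGAA was present for 3 of the 27 genes (11.1%), against 1.82% of all genes. CCAAT was present for 22 of the 27 genes (81.5%), against 39.7% of all genes. Both TTTGAA and CCAAT occurred for 15 of the 27 genes (55.6%), against 7.26% of all genes. Among 85 genes with a window from the wider mitosis lists below, 57.6% had TTTGAA, 61.2% had CCAAT and 31.8% had both. Such a match describes the letters and shows no binding.

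The 250 bases before the start are printed for 4 members with both motifs, and for CCNF, the gene of the wider mitosis lists below whose change passed the authors' test. Capitals mark CHR and CCAAT letters on either strand, where TTCAAA and ATTGG are the same motifs read on the other strand, and each run reads 5′ to 3′ toward the gene in GRCh38.p14.
CDC20, chr1:43358731-43358980 (plus strand): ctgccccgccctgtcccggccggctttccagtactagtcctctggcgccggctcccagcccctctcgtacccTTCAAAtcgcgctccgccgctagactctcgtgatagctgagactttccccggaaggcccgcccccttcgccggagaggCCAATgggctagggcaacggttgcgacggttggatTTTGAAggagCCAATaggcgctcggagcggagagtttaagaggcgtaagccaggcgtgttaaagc
PLK1, chr16:23678639-23678888 (plus strand): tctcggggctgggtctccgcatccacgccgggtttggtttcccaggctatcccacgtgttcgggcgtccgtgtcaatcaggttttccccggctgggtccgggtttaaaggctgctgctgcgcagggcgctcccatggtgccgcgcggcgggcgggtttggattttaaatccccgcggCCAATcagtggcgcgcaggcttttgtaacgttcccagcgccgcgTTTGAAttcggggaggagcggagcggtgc
CCNB2, chr15:59104896-59105145 (plus strand): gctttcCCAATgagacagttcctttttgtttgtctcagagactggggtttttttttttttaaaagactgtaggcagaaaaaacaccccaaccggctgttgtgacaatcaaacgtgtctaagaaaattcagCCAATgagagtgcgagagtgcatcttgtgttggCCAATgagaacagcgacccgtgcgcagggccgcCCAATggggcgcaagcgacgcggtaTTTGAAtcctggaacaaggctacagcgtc
MKI67, chr10:128126424-128126673 (minus strand): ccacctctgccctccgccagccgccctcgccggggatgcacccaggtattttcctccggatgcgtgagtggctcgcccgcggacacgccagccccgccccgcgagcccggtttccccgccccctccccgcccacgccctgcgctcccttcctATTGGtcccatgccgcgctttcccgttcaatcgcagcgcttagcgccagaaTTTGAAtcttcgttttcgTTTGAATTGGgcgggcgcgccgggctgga
CCNF, chr16:2429197-2429446 (plus strand): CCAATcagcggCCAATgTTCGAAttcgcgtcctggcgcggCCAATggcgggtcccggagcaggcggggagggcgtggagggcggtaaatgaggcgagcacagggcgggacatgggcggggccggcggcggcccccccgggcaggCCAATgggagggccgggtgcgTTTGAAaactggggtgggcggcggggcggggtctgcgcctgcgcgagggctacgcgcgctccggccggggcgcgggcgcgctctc
In CCNB2 the CHR lay 29 to 24 bases before the start, and its 4 CCAAT boxes began 244, 120, 87 and 54 bases before it. PLK1 had its CHR at the same distance as CCNB2, with 1 CCAAT box. In CDC20 the nearer CHR lay 65 to 60 bases before the start, between 2 CCAAT boxes. MKI67 had 2 CHR matches, of which 1 overlaps a CCAAT box. CCNF had 4 CCAAT boxes, a CHR and its variant.

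None of the 33 G2/M genes passed the authors' test for a change. All 33 genes were tested, through 133 of their 160 coding sequences, and the lowest q, the p-value adjusted over all tested coding sequences, was 0.997 in the authors' deposited table. A coding sequence was called at a q under 0.05. By that rule 0.354% of all 34474 tested coding sequences and 1.06% of genes with a tested coding sequence were called. At an unadjusted p under 0.05 Cuffdiff's values gave 3 of the 133 coding sequences (2.26%), against 3.31% of all tested ones. They came from PLK1, AURKB and MKI67, which is 3 of 33 genes (9.09%), against 9.49% of all tested genes. Each of the 3 was higher in BB608, and 5.40% of all tested genes had such a coding sequence that was higher. In either direction the members' share was close to that over all genes, while counted as higher alone it was above it, and that difference was not tested.

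The gene sums lay close together in the 2 groups. Together the 33 genes summed to 2917 FPKM with DMSO and 2992 FPKM with BB608, which is 0.595% and 0.596% of all FPKM. Their log2 folds of BB608 over DMSO ran from -0.36 to 0.34 with a median of 0.05. Over the 10859 genes that had a tested coding sequence and reached 1 FPKM in 1 of the groups, called expressed genes here, the median was 0.03. The gene sum was lower in BB608 for 11 of the 33 (33.3%), against 42.4% of expressed genes. No member differed by more than 0.5 log2, and 2 of the 33 (6.06%) differed by more than 0.25 log2. Of all expressed genes 29.9% differed by more than 0.25 log2, and of the 3907 with a mean of at least 20 FPKM 10.4% did. The 2 members were CDC25B, which is under that level, and PTTG1. By level the median member stood at percentile 88.2 of expressed genes, and CDC25B and CDC25C, at percentiles 41.9 and 45.6, were below the median expressed gene.

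**Figure D1:**
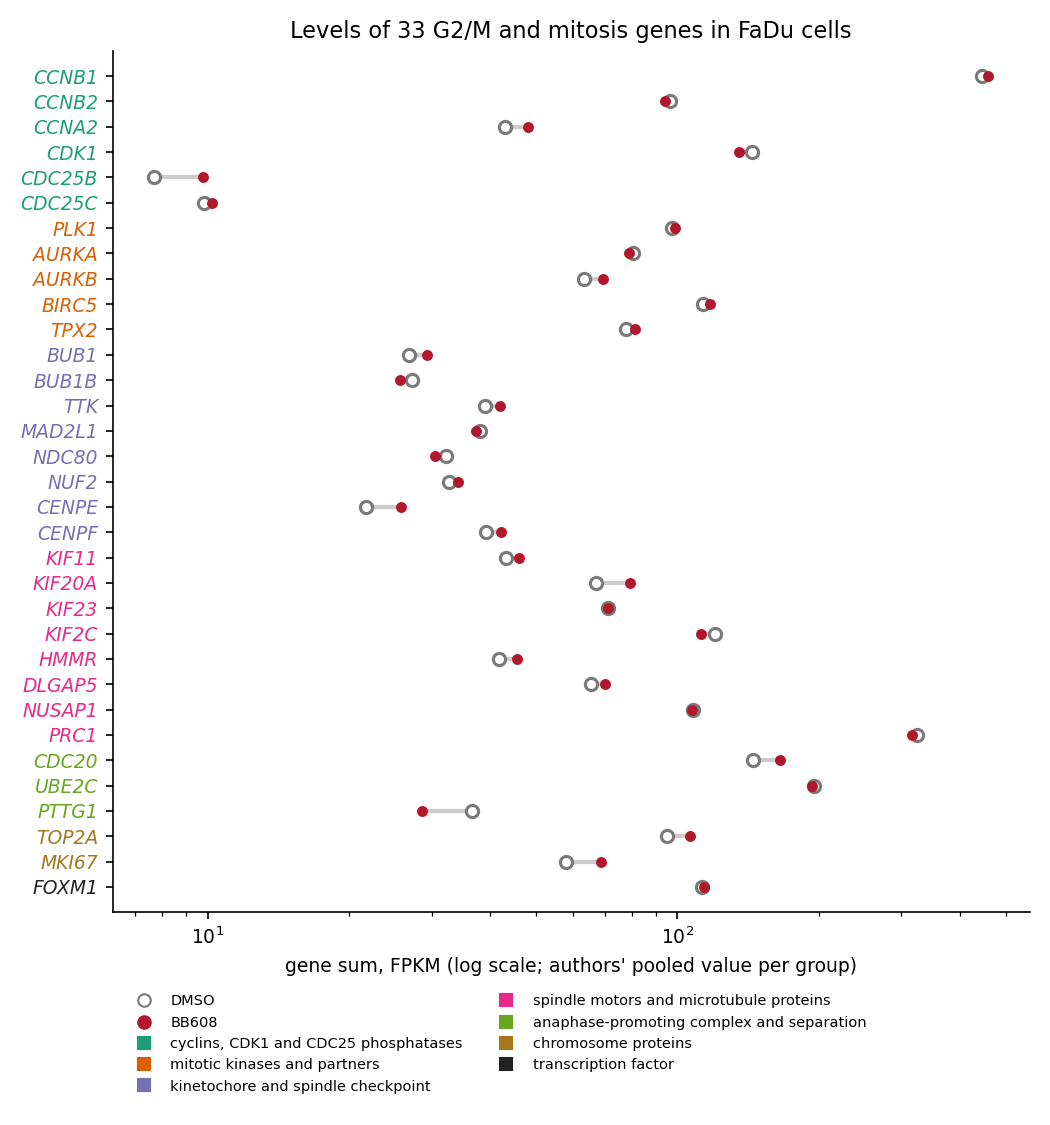
Gene sums of the 33 genes in FPKM on a log axis, with an open circle for DMSO and a filled one for BB608. Each is from the authors' pooled values per group, and gene names are coloured by role. The circles of most genes overlap or nearly touch; the widest gaps are those of PTTG1, lower in BB608, and CDC25B, higher.

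Among the cyclins, CDK1 and the CDC25 phosphatases, none of 6 genes passed the test, and 4 sums were higher and 2 lower in BB608. CCNB1, which encodes cyclin B1, had the highest level of all 33 genes, at 444.5 FPKM with DMSO and 458.7 FPKM with BB608, a log2 fold of 0.05. Its partner kinase gene CDK1 stood at 144.0 FPKM with DMSO and 135.5 FPKM with BB608, a log2 fold of -0.09. CCNB2, for cyclin B2, had 96.4 FPKM with DMSO and 94.3 FPKM with BB608. CCNA2, for cyclin A2, has a single coding sequence in the table, so its sum is the value of that sequence. It had 43.0 FPKM with DMSO and 48.0 FPKM with BB608, a log2 fold of 0.16 with a 95% interval of -0.06 to 0.38. The 2 phosphatase genes were the least abundant members. CDC25B, an early activator of CDK1, had a sum of 7.70 FPKM with DMSO and 9.75 FPKM with BB608, a log2 fold of 0.34 and the largest positive one among the members. Its main coding sequence did not share that direction, with 7.51 FPKM with DMSO and 7.23 FPKM with BB608 and a 95% interval of -1.10 to 0.99. CDC25C had 9.82 FPKM with DMSO and 10.2 FPKM with BB608.

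Intervals here come from an error derived for each log2 fold. Cuffdiff's statistic was rescaled by 1.73, the median ratio of the normal quantile of its p to the size of the statistic, and the fold divided by the rescaled statistic is called the implied SE. It is approximate and covers the spread as the authors' model estimated it. It exists for single coding sequences and not for gene sums, so each interval is that of the most abundant tested coding sequence of a gene. Over the 33 genes this SE ran from 0.09 to 0.54 with a median of 0.14. The 95% interval lay within 1 log2 on either side of 0 for 29 of the 33 genes, and within 0.5 log2 for 20. It included 0 for 32 genes, all but PLK1, and was not adjusted for the number of genes. The most abundant sequence was chosen by the mean of both groups. In PLK1 that sequence had 40.63 FPKM with DMSO, and another had 40.57 FPKM with DMSO and 34.64 FPKM with BB608. The wide intervals were those of CDC25B, CDC25C, KIF2C and PTTG1, for which a change of 1 log2 in at least 1 direction lay inside the interval.

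**Figure D2:**
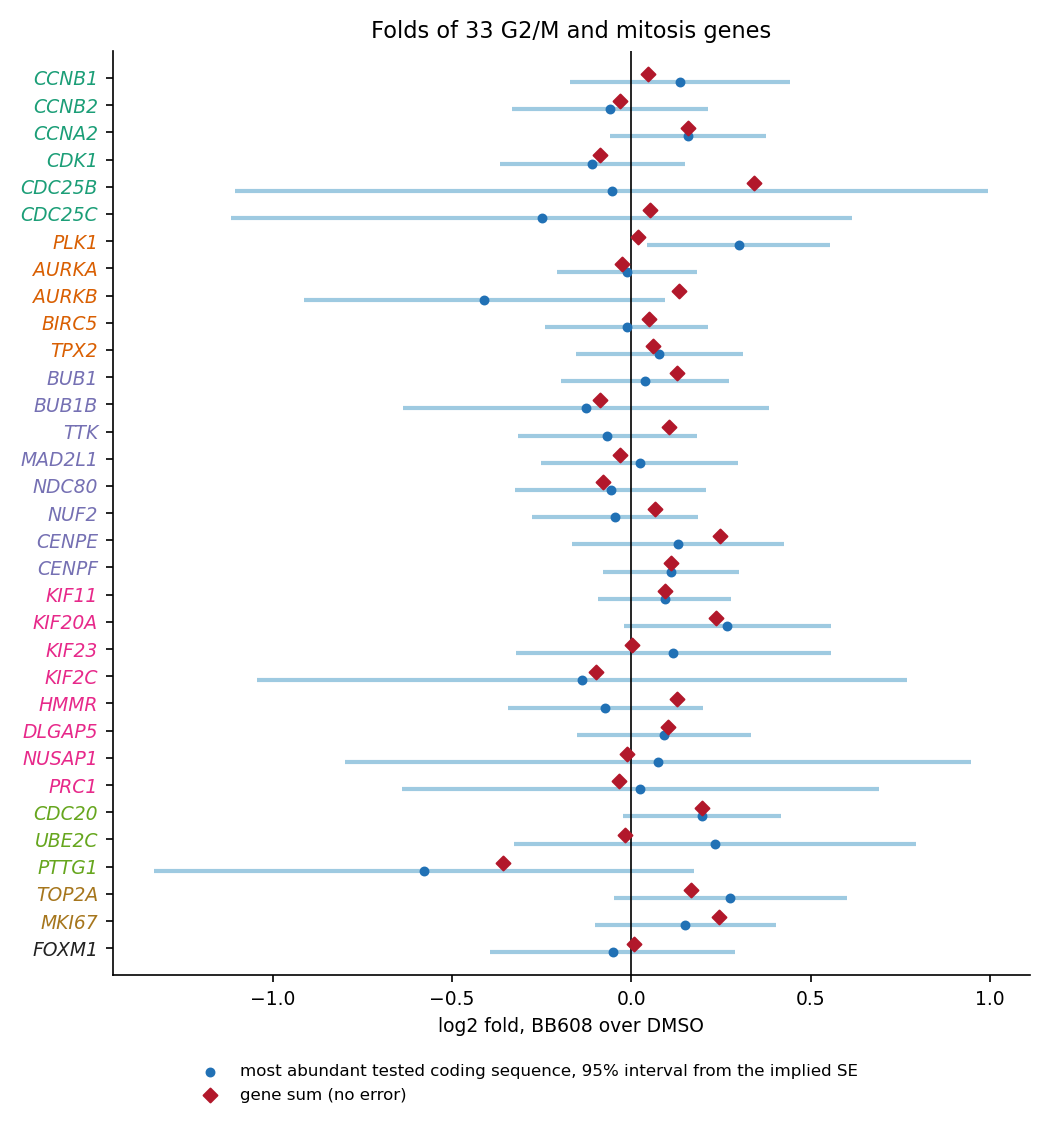
Log2 fold of BB608 over DMSO for each gene, as the gene sum (red diamonds, no error) and as the most abundant tested coding sequence (blue points) with its 95% interval from the implied SE (bars). The gene sums run from -0.36 to 0.34, and the interval of PLK1 alone leaves out 0.

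Of the 5 mitotic kinases and their partners 4 sums were higher in BB608 and 1 was lower, with none called. BIRC5, which encodes survivin, a subunit of the chromosomal passenger complex, was the most abundant, at 113.6 FPKM with DMSO and 117.5 FPKM with BB608. AURKA, the centrosomal Aurora kinase, had 80.3 FPKM with DMSO and 78.9 FPKM with BB608, and its main coding sequence had a log2 fold of -0.01 with a 95% interval of -0.21 to 0.18. The gene of its activator TPX2 had 77.9 FPKM with DMSO and 81.2 FPKM with BB608. AURKB, the Aurora kinase of the passenger complex, had the largest difference of this group, with 63.3 FPKM with DMSO and 69.4 FPKM with BB608, a log2 fold of 0.13. The sum of PLK1, the Polo-like kinase, was 97.4 FPKM with DMSO and 98.7 FPKM with BB608, a log2 fold of 0.02.

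Within PLK1, AURKB and MKI67 single coding sequences differed more than the sums did. Reads of a gene are divided by Cuffdiff among overlapping coding sequences, so a share taken by 1 sequence is less certain than the sum. PLK1, at chr16:23688976-23724821 of hg19 by the file's locus column, has 4 listed coding sequences. One of them stood at 40.6 FPKM with DMSO and 49.98 FPKM with BB608, a log2 fold of 0.30 with an implied SE of 0.13, and an unadjusted p = 0.0228 and q = 0.997 in the authors' deposited table. The other 3 together went from 56.8 to 48.7 FPKM, so the share of the first was 41.7% in DMSO and 50.6% in BB608 while the PLK1 sum hardly differed. AURKB, at chr17:8107338-8113918, has 11 listed coding sequences, the most of any member. One had 12.1 FPKM with DMSO and 19.5 FPKM with BB608, a log2 fold of 0.69 with an implied SE of 0.28, and an unadjusted p = 0.0187 and q = 0.997 in the authors' deposited table. The most abundant coding sequence of AURKB leaned the other way, with 29.5 FPKM with DMSO and 22.2 FPKM with BB608 at an unadjusted p of 0.103 in the authors' deposited table. The 10 others together had 51.3 FPKM with DMSO and 49.96 FPKM with BB608.

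MKI67 differed from these 2 in that both of its coding sequences were higher in BB608. It encodes Ki-67, the chromosome-coating protein used as a marker of dividing cells, and lies at chr10:129892548-129924719. The less abundant sequence had 21.4 FPKM with DMSO and 28.1 FPKM with BB608, a log2 fold of 0.39 with an implied SE of 0.19, and an unadjusted p = 0.0398 and q = 0.997 in the authors' deposited table. The more abundant one had 36.6 FPKM with DMSO and 40.6 FPKM with BB608, a log2 fold of 0.15. The MKI67 sum was 58.0 FPKM with DMSO and 68.7 FPKM with BB608, a log2 fold of 0.24. TOP2A, the topoisomerase that untangles sister chromatids, had a sum of 94.9 FPKM with DMSO and 106.5 FPKM with BB608, a log2 fold of 0.17. Neither of these 2 chromosome proteins' genes was called.

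Over all 29 members with more than 1 coding sequence, the part of a gene's FPKM that moved from some coding sequences to others had a median of 7.17 percentage points. In the 3522 expressed genes with more than 1 coding sequence and a mean of at least 20 FPKM, that median was 6.18 points, and in all 9176 expressed genes with more than 1 coding sequence it was 9.60 points, so the members lay between the 2. The 29 members include CDC25B and CDC25C, which are under 20 FPKM. It was smallest in DLGAP5, at 1.11 points. It was largest in CDC25C, at 37.3 points, a gene of low level whose 7 coding sequences share about 10.2 FPKM with BB608. One CDC25C coding sequence had 4.08 FPKM with DMSO and 1.42 FPKM with BB608, with an implied SE of 1.11 on its log2 fold of -1.52, so this split is poorly measured. Only 2 of the 29 genes with more than 1 tested coding sequence had all of those on one side of 0.

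**Figure D3:**
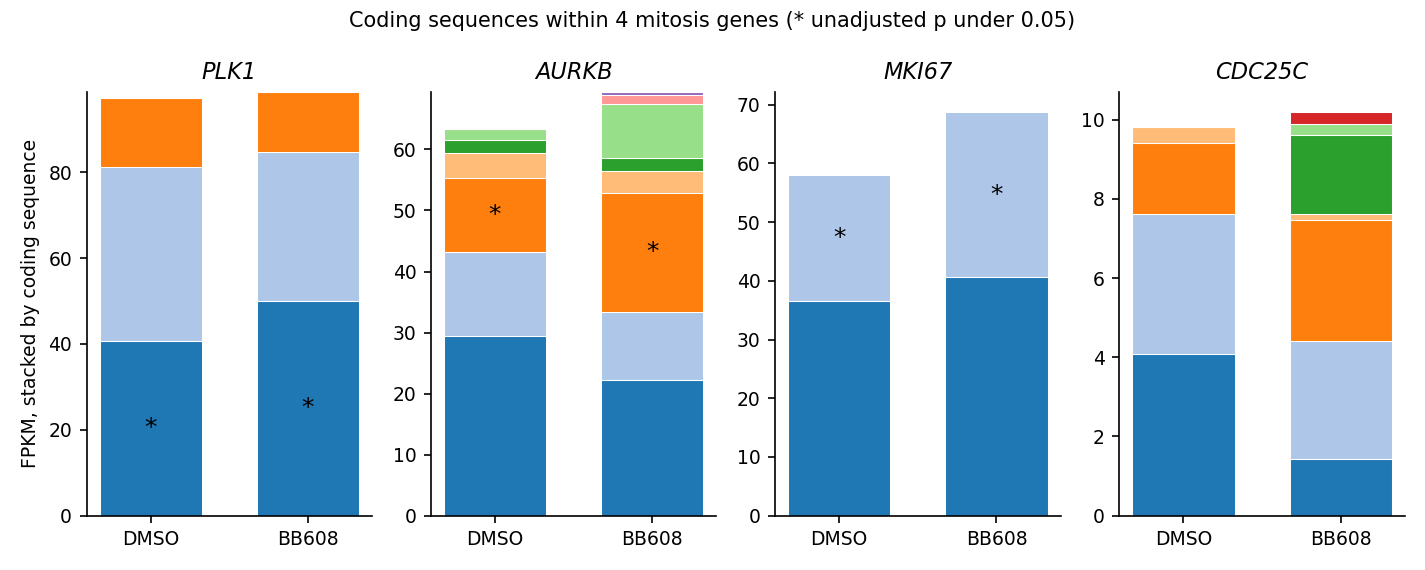
FPKM of PLK1, AURKB, MKI67 and CDC25C in each group, stacked by coding sequence with the one most abundant in DMSO at the bottom and a star on those with an unadjusted p under 0.05; each panel has its own axis from 0. Bars of PLK1 have nearly the same height while their parts differ, and both parts of MKI67 are taller in BB608.

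Of the 8 kinetochore and spindle checkpoint genes 5 sums were higher and 3 lower in BB608, and none was called. CENPF, for a large kinetochore protein, was the most abundant and has 1 coding sequence, with 39.1 FPKM with DMSO and 42.2 FPKM with BB608, a log2 fold of 0.11 and a 95% interval of -0.08 to 0.30. CENPE, the kinetochore motor, had the largest difference, with a sum of 21.7 FPKM with DMSO and 25.8 FPKM with BB608, a log2 fold of 0.25. Its main coding sequence had 0.13. BUB1B, which encodes the checkpoint protein BUBR1, had the lowest fold of the group, at 27.3 FPKM with DMSO and 25.7 FPKM with BB608, a log2 fold of -0.09. The checkpoint kinase genes BUB1 and TTK had sum log2 folds of 0.13 and 0.11, that of the checkpoint effector MAD2L1 was -0.03, and the NDC80 complex genes NDC80 and NUF2 had -0.08 and 0.06. No direction was shared by the group.

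The 8 spindle motors and microtubule proteins gave a like picture, with 5 sums higher, 3 lower and none called. PRC1, which bundles the microtubules of the central spindle, was the most abundant at 323.4 FPKM with DMSO and 315.9 FPKM with BB608, spread over 10 coding sequences. KIF20A, a motor of cytokinesis, had the largest difference, with 67.2 FPKM with DMSO and 79.1 FPKM with BB608, a log2 fold of 0.23. Its main coding sequence had a log2 fold of 0.27 with a 95% interval of -0.02 to 0.56 and an unadjusted p of 0.0672 in the authors' deposited table. KIF2C, a microtubule depolymerase, had 120.0 FPKM with DMSO and 112.2 FPKM with BB608, a log2 fold of -0.10. KIF11, the motor that separates the spindle poles, has 1 coding sequence, with 43.2 FPKM with DMSO and 46.0 FPKM with BB608 and a 95% interval of -0.09 to 0.28. The sums of the cytokinesis motor KIF23 and of NUSAP1 and DLGAP5, both for microtubule-binding proteins, had log2 folds of 0.0017, -0.01 and 0.10, and that of HMMR, for another microtubule-associated spindle protein, had 0.13.

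Of the genes that act at the exit from mitosis, CDC20 and PTTG1 lay at opposite ends. CDC20, the activator of the anaphase-promoting complex, has 1 coding sequence, with 144.6 FPKM with DMSO and 165.6 FPKM with BB608, a log2 fold of 0.20 with a 95% interval of -0.02 to 0.42, and an unadjusted p = 0.0783 and q = 0.997 in the authors' deposited table. PTTG1, which encodes securin, a substrate of that complex, had the lowest fold of all 33 genes, with a sum of 36.6 FPKM with DMSO and 28.5 FPKM with BB608, a log2 fold of -0.36. The difference lay in its main coding sequence, at 29.3 FPKM with DMSO and 19.6 FPKM with BB608, a log2 fold of -0.58 with a 95% interval of -1.33 to 0.17, and an unadjusted p = 0.136 and q = 0.997 in the authors' deposited table. Its other coding sequence had 7.27 FPKM with DMSO and 8.93 FPKM with BB608. UBE2C, the ubiquitin-conjugating enzyme of the complex, had 195.6 FPKM with DMSO and 193.0 FPKM with BB608. FOXM1, the transcription factor of this programme, had 113.1 FPKM with DMSO and 113.7 FPKM with BB608, a log2 fold of 0.01 for the sum and a 95% interval of -0.39 to 0.29 for its main coding sequence.

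Beyond the 33 genes, 97 other mitosis genes in 6 lists, also chosen with earlier results of these data known, were examined. Of these, 1 gene, CCNF, was called, and it rose. By comparison 0.429% of all genes with a tested coding sequence rose by the same rule and 1.06% were called in either direction, a share near 1 of 97. CCNF encodes cyclin F, the substrate-binding subunit of a ubiquitin ligase that is made in G2, and its file locus is chr16:2479394-2509980 of hg19. Its main coding sequence had 14.8 FPKM with DMSO and 19.7 FPKM with BB608, a log2 fold of 0.42 with an implied SE of 0.11, and an unadjusted p = 0.0001 and q = 0.0290 in the authors' deposited table. The CCNF sum over 3 coding sequences was 15.9 FPKM with DMSO and 19.9 FPKM with BB608, a log2 fold of 0.33. A second tested coding sequence of CCNF had 0.815 FPKM with DMSO and 0.000283 FPKM with BB608, at an unadjusted p of 0.244 in the authors' deposited table.

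The gene sums were higher in BB608 for 70 of the 97 genes and lower for 27 (27.8%), against 42.4% of expressed genes. Their median log2 fold was 0.08. With the groups scaled so that expressed genes had a median of 0, 36 of the 97 (37.1%) were lower. Under that scaling about as many expressed genes were lower as higher. The unscaled 42.4% is therefore not the share to set beside 37.1%, and the 97 genes were still less often lower than expressed genes. That difference was not tested. A coding sequence at an unadjusted p under 0.05 was present in 6 of the 97 genes, below the 9.49% of all tested genes. Whether CCNF differs from the other genes was not tested. The DREAM and B-MYB list had no call among 12 genes, and its lowest and highest folds were those of LIN52, with 4.15 FPKM with DMSO and 2.72 FPKM with BB608, and RBBP4, with 137.8 FPKM with DMSO and 154.9 FPKM with BB608. The list of 23 kinetochore and centromere genes had no call, with log2 folds from -0.16 in CENPI to 0.54 in HJURP, the chaperone of the centromeric histone. Of 14 cohesin, condensin and separase genes none was called, with folds from -0.17 in SMC1A to 0.68 in SMC3, a cohesin subunit with 1 coding sequence at 6.72 FPKM with DMSO and 10.7 FPKM with BB608 and an unadjusted p of 0.0396 in the authors' deposited table. The 15 genes of the anaphase-promoting complex had no call and ran from -0.20 in ANAPC10 to 0.64 in ANAPC1, and the 20 spindle and cytokinesis genes had none and ran from -0.13 in SPAG5 to 0.26 in KIF18B. Among the 13 entry regulators, the list that holds CCNF, the lowest fold was -0.22 in BORA, an activator of Aurora A. These lowest and highest folds are of gene sums. The main coding sequence leaned the other way in CENPI (log2 fold 0.06), SMC1A (0.55) and SPAG5 (0.04). In the other genes named here it had the direction of the sum, but was closer to 0 in HJURP (0.19) and BORA (-0.04), among others.

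**Figure D4:**
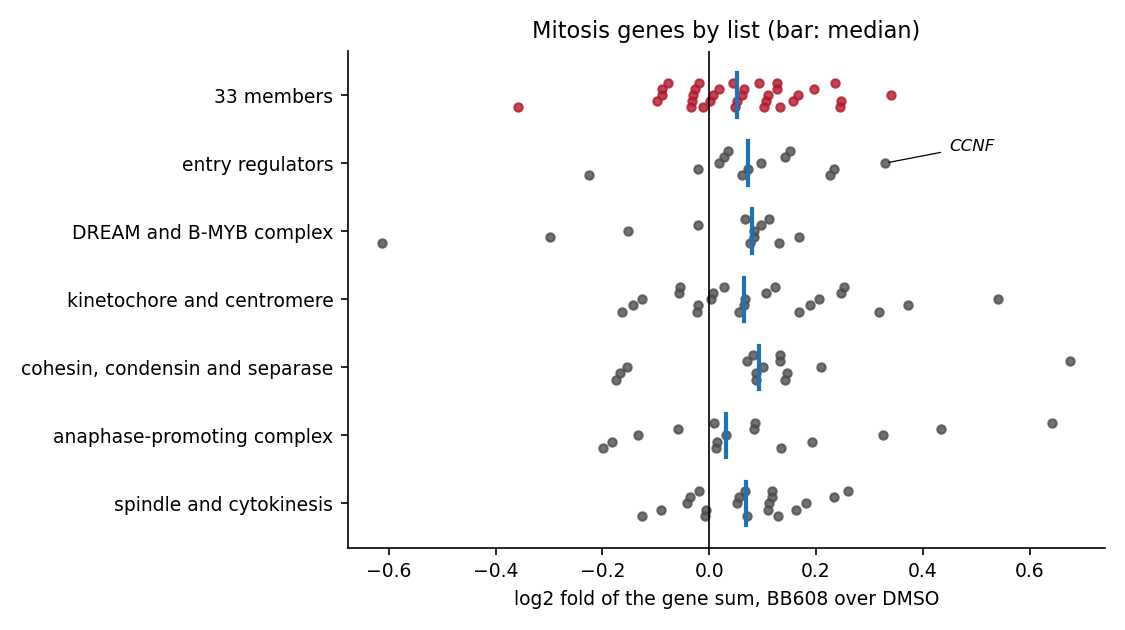
Log2 fold of the gene sum, BB608 over DMSO, for the 33 genes (red) and for 97 other mitosis genes in 6 lists (grey), 1 point per gene and a blue bar at each median. The medians run from 0.031 to 0.094, and CCNF, the called gene, is labelled.

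The markers fixed for FaDu identity matched a squamous epithelial line. All 7 of the squamous epithelial markers lay between 20.6 and 2472 FPKM and summed to 3434 FPKM with DMSO and 3584 FPKM with BB608. The 5 fibroblast markers summed to 0.980 FPKM with DMSO and 0.865 FPKM with BB608, with LUM listed at 0 in both groups. Of 5 blood and endothelial markers, PECAM1 had no entry under its symbol. The other 4 summed to 0.0660 FPKM with DMSO and 0.0896 FPKM with BB608, with CD3E listed at 0 in both.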

How the data were processed

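Per the labels' protocols, libraries came from Trizol-extracted total RNA depleted of ribosomal RNA with a stranded kit. The submitters' processing notes name TopHat2 2.0.11, Cufflinks 2.2.1 and Cuffdiff with hg19; no source used here names the gene annotation. The deposited table lists 82428 coding sequences with a pooled FPKM value per group, and the authors' log2 fold, test statistic (a score), p-value and q-value. Folds were recomputed from the deposited FPKM values. Members and lists were chosen with earlier results of these data known. The limma fit foreseen for values per library did not apply to a table of pooled values, so the calls are the authors'. Every member is named; full values went to members at an unadjusted p under 0.05 and, per role, to the most abundant and to the highest and lowest fold. In each wider list called genes, or else the highest and lowest fold, were named. The calling and SE steps were tested on simulated data. Those data followed the relation of statistic to p that the SE step assumes, so they cannot show that this relation holds for Cuffdiff's values. Alternatives varied filters, pseudocounts, scaling and the summary per gene. Python 3.11.15 with pandas 2.3.3 and scipy 1.17.1 was used.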

Additional observations from a re-analysis of the deposited data

How the results depend on the processing

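No paired analysis was possible because each group has a single pooled value, and for the same reason no replicate was left out and sequencing depth is unknown. The count of 0 members called by Cuffdiff's q was also 0 with a mean of at least 1 or 5 FPKM per coding sequence, with normal p-values from the statistic, and at a q under 0.1. It was 3 at an unadjusted p under 0.05, a looser rule by construction. CCNF was called under each of these q settings, with q from 0.0163 to 0.0290. Of these, the normal p-values for the wider lists were chosen after seeing the data, as was listing CCNF's q by setting. The members' median log2 fold ran from 0.01 to 0.05, and 11 to 15 of the 33 were lower in BB608. Over expressed genes the share lower ran from 41.4% to 50.8% under the same settings. Scaling to a median log2 ratio of 0 shifted every fold by 0.0349, and left 14 members lower. Of 198 settings over the members' folds 194 stayed within 1 implied SE and 19 changed sign. The 4 that moved further came with the most abundant coding sequence in place of the sum, at 0.30 for PLK1, -0.41 for AURKB, -0.07 for TTK and -0.07 for HMMR.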
